A study of Mus musculus with 14 samples.

Results

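The genes described here are the mouse ligands named Fgf, Wnt and Bmp, a set of secreted factors that pattern the embryo. They were matched by symbol, Fgf, Wnt or Bmp followed by a number, with or without a closing a or b for Wnt and Bmp, and no measured value entered the rule. Of the 23152 loci in the RNA-seq tables, 52 symbols matched, and the 50 genes reported here had an FPKM value in each of the 11 libraries. They comprise 17 secreted Fgf genes, 4 intracellular Fgf genes (Fgf11, Fgf12, Fgf13 and Fgf14), 19 Wnt genes and 10 Bmp genes. FPKM, the fragment count scaled by transcript length and by the mapped fragments of the library, is a level per length, so levels can be set side by side between genes.

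Fgf ligands act through receptor tyrosine kinases and the ERK pathway, and in ES cells the autocrine ligand Fgf4 primes the exit from pluripotency. Wnt ligands act through Frizzled receptors with Lrp5 or Lrp6, or through Ror and Ryk receptors, and Bmp ligands act through serine/threonine kinase receptors and SMAD1, SMAD5 and SMAD9. In the neural tube, Wnt and Bmp ligands come from the roof plate and the overlying ectoderm, opposite the ventral region where motor neurons arise. The genes Fgf11 to Fgf14 carry the family name but encode intracellular proteins that bind voltage-gated sodium channels, so the word ligand does not hold for them.

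The study compared C57BL/6 ES cells labelled wild type (WT, JM8 clone) with cells labelled Taf9b knock-out (KO, Taf9b_BG10 clone), undifferentiated and as embryoid bodies (EBs) at days 2, 4 and 6 of motor neuron differentiation with retinoic acid and a smoothened agonist. It also measured newborn spinal column tissue labelled WT and KO and newborn spinal cord labelled WT, which carry the same clone names in their labels. TAF9B is a TBP-associated factor, a core promoter protein. TAF9B and RNA POL2 ChIP-seq peak lists came from EB motor neurons at day 8 of differentiation, of a wild type line (HBG3 clone) that carries a motor neuron GFP reporter. The KO allele is described as a LacZ-Neo cassette in place of the coding exons, and the KO cells are 1 clone, so the clone and the allele cannot be told apart.

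Each RNA-seq condition is 1 library, 11 in all, so no difference below has a replicate check and no p-value is given. A gene entered a comparison when either library had it above 1 FPKM, and it was counted as past 2-fold when the ratio of the FPKM values exceeded 2 in either direction. The depth of the libraries is unknown. Taf9b itself, at chrX:103402213-103416497 in mm9, did not follow the labels in culture: it was 0.537 FPKM in the ES library labelled WT and 3.06 in that labelled KO, 0.516 and 4.08 at day 2, 1.96 and 4.27 at day 4, and 1.37 and 4.01 at day 6. In spinal column it was 6.65 FPKM in the library labelled WT and 3.31 in that labelled KO, and in spinal cord 7.44. FPKM does not show which exons the reads came from, so the libraries are called here by their labels and every direction rests on these labels. In the paper, qRT-PCR and western blots of differentiating cells showed Taf9b induction in WT cells and none in KO cells. Its qRT-PCR also gave lower motor neuron markers in KO cells. Motor neuron markers were present in the day 6 library labelled WT, where Mnx1, Isl1, Isl2, Lhx3 and Chat summed to 43.3 FPKM, against 2.86 in the library labelled KO.

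Reads were assigned without a stated strand, and 10 of the 50 genes share their locus entry with another symbol (among them Bmp4 with Gm15217, Wnt5b with Fbxl14 and Fgf7 with Galk2), so reads of such neighbours cannot be told apart here. A level above 1 FPKM in any library was seen for 42 of the 50, and 21 reached 5 FPKM. Above 1 FPKM in all 11 libraries were 6 genes: Bmp4, Bmp7, Fgf13, Wnt5a, Wnt5b and Wnt7b. Never above 1 FPKM were 8 genes: Bmp10, Bmp15, Fgf20, Fgf21, Fgf23, Wnt8b, Wnt9b and Wnt10a. The number above 1 FPKM was lowest in the EB day 2 library labelled KO and the EB day 4 library labelled WT, 12 each in a range up to 29 in spinal column labelled KO. The share of these genes above 1 FPKM was below that of all loci in each of the 11 libraries, from 24.0% against 50.7% at day 4 under the WT label to 58.0% against 58.9% in spinal column labelled KO.

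**Figure D1:**
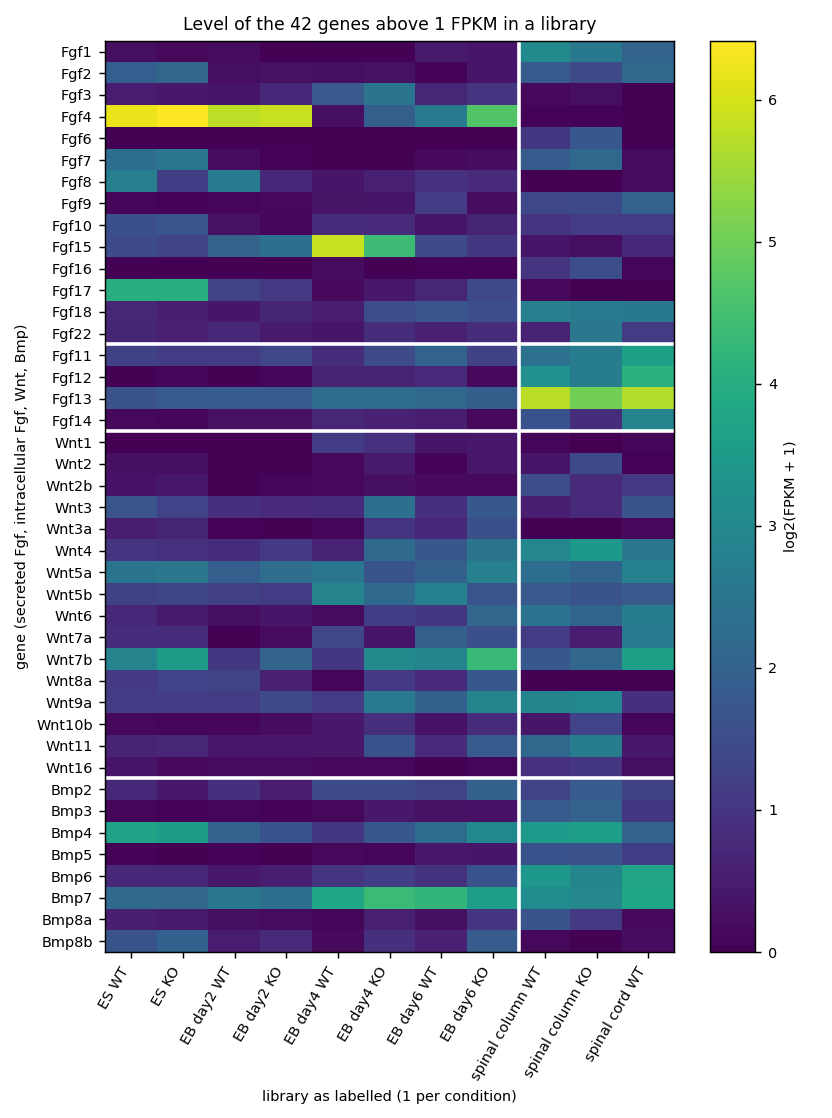
Level, as log2(FPKM + 1), of the 42 genes above 1 FPKM in a library (rows: secreted Fgf, intracellular Fgf, Wnt and Bmp, split by white lines) in the 11 libraries (columns, 1 per condition). Fgf4 is bright in ES cells and at day 2, Fgf15 at day 4, and Fgf13 in the 3 tissue libraries.

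The most abundant of the 50 genes changed with stage. Fgf4 was the highest of the 50 genes in the ES and day 2 libraries under both labels, and Fgf15, the mouse counterpart of human FGF19, which is made by the embryonic neuroepithelium, was the highest at day 4 under both. At day 6 the labels parted: Bmp7 led in the library labelled WT at 17.6 FPKM, and Fgf4 led in the library labelled KO at 24.7. The intracellular Fgf13 led in all 3 tissue libraries, where the highest secreted ligand was Bmp4 in spinal column, at 9.81 and 11.1 FPKM under the WT and KO labels, and Bmp7 in spinal cord, at 12.6.

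The peak sequences that follow are a few chosen from those nearest to ligand genes whose levels are described below. They are TAF9B peaks more than 500 bp from a transcription start site (TSS), read 5′ to 3′ on the plus strand of mm9 (NCBIM37). Capitals mark a match, with at most 1 mismatch, to the consensus of CTCF, a zinc finger protein known for binding insulators and domain borders. The peak of Fgf15 is at chr7:152081763-152082048, between genes and 531 bp upstream of its TSS. That of Wnt9a is at chr11:59121336-59121591 in an intron, 1032 bp downstream, that of Wnt5a at chr14:29320761-29321007 in an intron, 2948 bp downstream, and that of Wnt3a at chr11:59107246-59107455 between genes, 3097 bp upstream. The peak of Bmp2 is at chr2:133375989-133376138 between genes, 1831 bp upstream. The peak of Wnt7b, at chr15:85413525-85413793, is 1408 bp upstream of its TSS in the GENCODE annotation and inside the longer Wnt7b locus of the expression tables. It holds no such match and is shown beside the others for comparison. The sequences shown are no even sample: of all 26 ligand peaks more than 500 bp from a TSS, 8 held a match. All distances are from GENCODE start sites.
Fgf15: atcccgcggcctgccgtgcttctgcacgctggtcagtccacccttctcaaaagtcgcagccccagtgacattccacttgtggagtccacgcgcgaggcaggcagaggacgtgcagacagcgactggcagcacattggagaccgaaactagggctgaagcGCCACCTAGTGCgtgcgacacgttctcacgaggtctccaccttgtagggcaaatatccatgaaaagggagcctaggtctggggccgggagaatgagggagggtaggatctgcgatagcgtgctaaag
Wnt9a: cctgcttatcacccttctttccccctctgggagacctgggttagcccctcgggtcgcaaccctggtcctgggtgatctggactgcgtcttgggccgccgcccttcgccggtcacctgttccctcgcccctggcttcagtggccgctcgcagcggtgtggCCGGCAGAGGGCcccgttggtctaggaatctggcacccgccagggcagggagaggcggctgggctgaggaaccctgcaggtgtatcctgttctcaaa
Wnt5a: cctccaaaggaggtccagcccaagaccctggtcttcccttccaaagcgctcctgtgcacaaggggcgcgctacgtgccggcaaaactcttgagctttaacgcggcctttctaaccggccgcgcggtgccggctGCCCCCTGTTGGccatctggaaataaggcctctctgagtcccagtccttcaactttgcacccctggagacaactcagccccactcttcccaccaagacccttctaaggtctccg
Wnt3a: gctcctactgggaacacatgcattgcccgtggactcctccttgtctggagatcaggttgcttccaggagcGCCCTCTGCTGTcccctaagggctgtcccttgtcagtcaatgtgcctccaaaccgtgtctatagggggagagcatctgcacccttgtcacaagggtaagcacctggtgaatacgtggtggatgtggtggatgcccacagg
Bmp2: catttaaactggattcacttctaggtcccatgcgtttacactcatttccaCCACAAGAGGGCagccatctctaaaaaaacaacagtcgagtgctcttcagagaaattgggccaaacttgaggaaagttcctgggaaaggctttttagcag
Wnt7b: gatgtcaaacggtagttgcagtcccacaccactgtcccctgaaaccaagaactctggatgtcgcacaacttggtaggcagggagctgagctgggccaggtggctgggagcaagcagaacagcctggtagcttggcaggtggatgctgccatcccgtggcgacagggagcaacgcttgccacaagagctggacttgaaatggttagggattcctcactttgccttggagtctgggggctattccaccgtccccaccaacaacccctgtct

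Among the culture libraries, Fgf4 was lowest at day 4 and higher again at day 6, and its values at both days were higher under the KO label. Its locus is chr7:152047291-152051148. It was 74.4 FPKM in ES cells labelled WT and 84.3 in those labelled KO, 53.6 and 58.0 at day 2, 0.204 and 2.82 at day 4, and 5.27 and 24.7 at day 6. The KO-labelled over WT-labelled log2 ratio was 0.18 in ES cells and 0.11 at day 2, and then 3.79 at day 4 and 2.23 at day 6. In tissue it was 0.0420 FPKM in spinal column labelled WT, 0.0510 in that labelled KO and listed at 0 in spinal cord. The sums of 5 pluripotent cell markers (Pou5f1, Nanog, Zfp42, Esrrb and Klf4) were also lowest at day 4 among the culture libraries, from 1342 and 1316 FPKM in ES cells labelled WT and KO through 30.1 and 180 at day 4 to 342 and 886 at day 6. All 5 were past 2-fold higher in the library labelled KO at day 4, and 4 of 5 at day 6. In these bulk libraries, fewer cells of a type and less RNA per cell cannot be told apart, and the part of the remaining pluripotent cells in the Fgf4 values was not tested.

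Fgf8 was the one ligand past 2-fold in undifferentiated cells. Fgf8, which acts in the primitive streak and at the midbrain-hindbrain border, is at chr19:45811288-45817374. It was 5.87 FPKM in ES cells labelled WT and 1.30 in those labelled KO, and 5.35 and 0.657 at day 2, log2 ratios of -2.18 and -3.03. At day 4 it was 0.304 and 0.485, at day 6 0.886 and 0.738, it was listed at 0 in both spinal column libraries, and it was 0.139 in spinal cord. The primitive streak gene T moved beside it, at 6.86 FPKM in ES cells labelled WT against 1.75, and 12.6 at day 2 against 0.822. The 5 mesoderm markers T, Mixl1, Eomes, Tbx6 and Mesp1 summed to 11.6 and 4.54 FPKM in ES cells and 15.9 and 3.07 at day 2, and T alone of them was past 2-fold. The part of those cells in the Fgf8 values was not tested.

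Fgf17, a close relative of Fgf8, did not share this difference in ES cells. It was 15.6 FPKM in ES cells labelled WT and 15.4 in those labelled KO, 1.48 and 1.08 at day 2, 0.120 and 0.334 at day 4, and 0.606 and 1.68 at day 6. In spinal column labelled WT it was 0.116 FPKM, and it was listed at 0 in that labelled KO and in spinal cord. Fgf18, the third of that subfamily, was low in ES cells and highest in tissue: 0.619 and 0.446 FPKM in ES cells labelled WT and KO, 0.305 and 0.572 at day 2, 0.397 and 1.84 at day 4, 2.30 and 1.92 at day 6, 5.94 and 5.39 in spinal column, and 5.01 in spinal cord.

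Fgf15 was a day 4 gene. At chr7:152082437-152086856, it was 1.81 and 1.50 FPKM in ES cells labelled WT and KO, 3.10 and 4.09 at day 2, 57.7 and 20.3 at day 4, and 1.75 and 1.07 at day 6. In spinal column it was 0.288 and 0.169 FPKM, and in spinal cord 0.654. The difference at day 4 was a log2 ratio of -1.51, the library labelled KO being lower. The 5 neural progenitor markers (Olig2, Pax6, Sox1, Nkx6-1 and Hes5) summed there to 301 FPKM under the WT label and 47.7 under the KO label, all 5 past 2-fold lower. The part of fewer progenitors in the Fgf15 values was not tested.

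**Figure D2:**
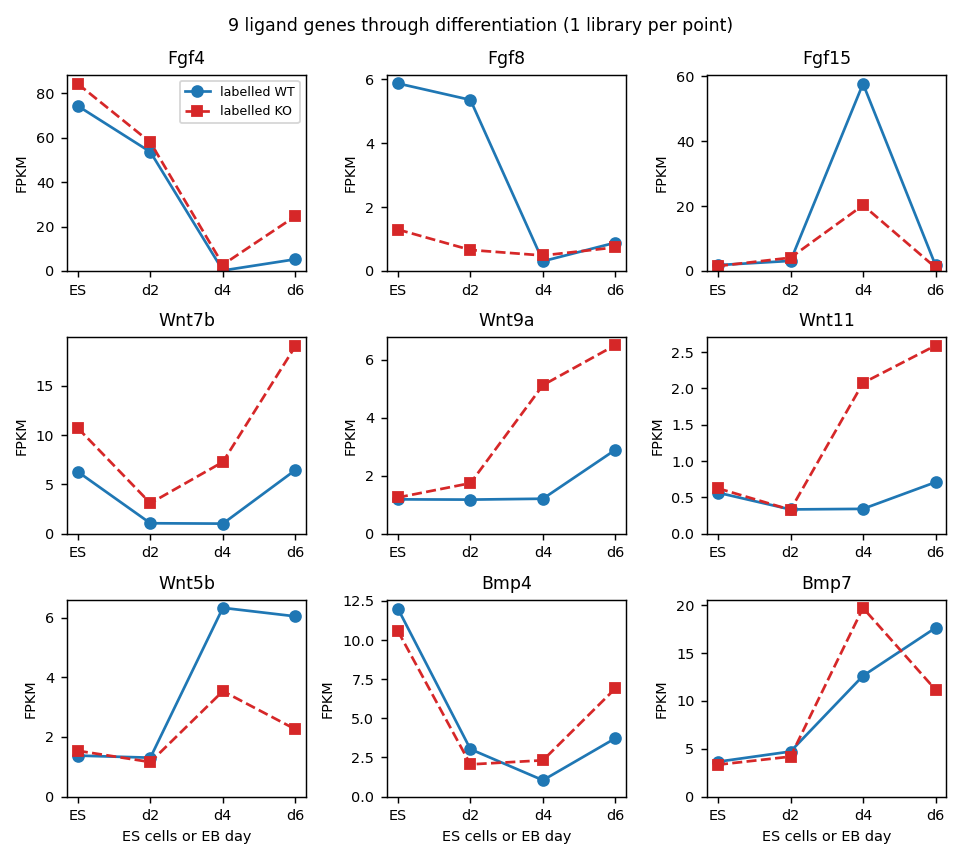
FPKM of 9 ligand genes (y axes, each from 0) in ES cells and at EB days 2, 4 and 6 (x axes), with 1 library per point, circles for libraries labelled WT and squares for libraries labelled KO. Fgf4 is lowest at day 4 and Fgf15 highest there, and Wnt7b, Wnt9a and Wnt11 are higher under the KO label at days 4 and 6.

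The tally of genes past 2-fold between the labels was small at first and large from day 4. In ES cells it was 1 of 18 genes counted (5.56%, with 1.13% of all 12032 loci counted, 0.54% higher and 0.59% lower), and at day 2 it was 3 of 14 (21.4%, all loci 2.58%), with Wnt7b higher (all loci 1.19%) and Fgf8 and Wnt8a lower (all loci 1.4%). At day 4 it was 14 of 21 (66.7%, all loci 16.5%), with 11 higher (all loci 12.1%) and 3 lower (all loci 4.46%) in the library labelled KO. At day 6 it was 15 of 23 (65.2%, all loci 20.4%), with 12 higher (all loci 10.5%) and 3 lower (all loci 9.93%). The median log2 ratio of the ligand genes counted was 1.15 at day 4 and 1.01 at day 6, beside -0.03 and -0.00306 over all loci counted. With both values above 1 FPKM it was 0.36 and 0.89, and with 1 FPKM added to both values 0.67 and 0.74. Most ligand genes are at low levels, where ratios spread more: among loci whose higher value lay from 1 to 10 FPKM, 25.6% were past 2-fold at day 4 and 27.3% at day 6, beside 13 of 19 and 13 of 20 ligand genes in the same range. Among genes above 1 FPKM in both libraries, 5 of 10 ligand genes were past 2-fold at day 4 (all loci 11.0%), 3 higher and 2 lower, and 7 of 15 at day 6 (all loci 14.8%), 5 higher and 2 lower. Most of the 14 and 15 differences thus involve a value of at most 1 FPKM in 1 of the libraries.

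**Figure D3:**
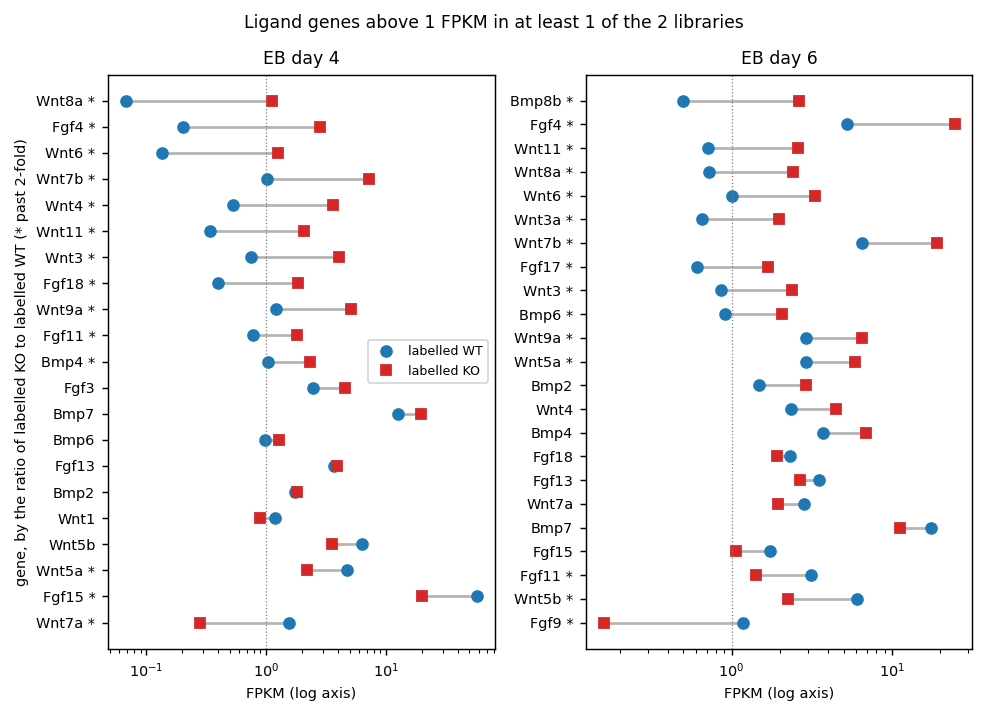
FPKM on a log axis of the ligand genes counted at EB day 4 (left, 21 genes) and day 6 (right, 23 genes), with circles for the library labelled WT, squares for the library labelled KO and stars at genes past 2-fold. Most squares lie to the right of their circles, with Wnt7a and Fgf9 the opposite extremes at day 4 and day 6.

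Wnt genes past 2-fold higher were 7 of the 11 counted at day 4 (all loci 12.1%) and 8 of the 11 counted at day 6 (all loci 10.5%). At day 4, 5 of these 7 were at most 1 FPKM under the WT label. With both values above 1 FPKM, 4 Wnt genes were counted at day 4, of which 2 were higher (Wnt7b and Wnt9a) and 1 lower (Wnt5a), beside 11.0% of all loci in either direction. At day 6 it was 7, of which 4 were higher (Wnt5a, Wnt6, Wnt7b and Wnt9a) and 1 lower (Wnt5b), beside 14.8%. Past 2-fold higher at both days were 7 ligand genes, 63.6% of those of day 4 and 58.3% of those of day 6: Fgf4, Wnt3, Wnt6, Wnt7b, Wnt8a, Wnt9a and Wnt11. Over all loci, the genes higher at both days were 47.5% of those of day 4 and 52.7% of those of day 6. Of the 3 ligand genes past 2-fold lower at day 4 and the 3 at day 6, none was lower at both, where over all loci the genes lower at both days were 52.0% of those of day 4 and 22.5% of those of day 6. With 3 genes on each side, nothing is read from this.

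Wnt7b, which acts in vessel growth into the nervous system and in dendrite formation, was the most abundant Wnt gene at day 6 under both labels. At chr15:85365867-85424138, it was 6.28 and 10.7 FPKM in ES cells labelled WT and KO, 1.06 and 3.10 at day 2, 1.03 and 7.28 at day 4, and 6.46 and 19.0 at day 6. In spinal column it was 2.41 and 3.34, and in spinal cord 11.2. The library labelled KO was the higher of the 2 in all 5 pairs, with log2 ratios of 0.77, 1.54, 2.83, 1.56 and 0.47 in this order.

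Wnt9a, known from joint formation, was within 2-fold between the labels in ES cells and at day 2 and past it at days 4 and 6. At chr11:59120432-59147054, it was 1.19 and 1.25 FPKM in ES cells labelled WT and KO, 1.18 and 1.74 at day 2, 1.21 and 5.12 at day 4, 2.90 and 6.51 at day 6, 6.37 and 6.90 in spinal column, and 0.807 in spinal cord. Wnt11, a ligand of the non-canonical branch, was 0.565 and 0.625 in ES cells, 0.334 and 0.329 at day 2, 0.342 and 2.07 at day 4, 0.709 and 2.59 at day 6, 3.48 and 5.60 in spinal column, and 0.342 in spinal cord. From ES cells to day 2, Wnt11 fell under both labels, while Wnt9a stayed near its level or rose. From day 2 on, the 2 genes had similar courses in culture. Both were past 2-fold higher under the KO label at days 4 and 6 and short of it in spinal column.

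Wnt3 and Wnt8a, ligands of the primitive streak, were also higher under the KO label from day 4. Wnt3 was 2.24 and 1.44 FPKM in ES cells labelled WT and KO, 0.810 and 0.707 at day 2, 0.753 and 4.10 at day 4, 0.864 and 2.40 at day 6, 0.455 and 0.697 in spinal column, and 2.11 in spinal cord. Wnt8a was 1.13 and 1.45 in ES cells, 1.50 and 0.498 at day 2, 0.0676 and 1.12 at day 4, and 0.724 and 2.42 at day 6, and it was listed at 0 in the 3 tissue libraries. Wnt8a was lower under the KO label at day 2 and higher at days 4 and 6, and its levels were never above 2.42 FPKM. Wnt3a, a roof plate ligand, was above 1 FPKM in 1 library, the day 6 library labelled KO, at 1.97 against 0.655.

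Wnt6 and Wnt4, both known from kidney epithelium, were higher under the KO label at days 4 and 6. Wnt6 was 0.650 and 0.375 FPKM in ES cells labelled WT and KO, 0.194 and 0.313 at day 2, 0.135 and 1.27 at day 4, 1.01 and 3.32 at day 6, 4.42 and 3.22 in spinal column, and 5.44 in spinal cord. Wnt4 was 0.966 and 0.901 in ES cells, 0.794 and 1.10 at day 2, 0.528 and 3.66 at day 4, 2.33 and 4.51 at day 6, 6.77 and 9.70 in spinal column, and 4.93 in spinal cord. Wnt4 was past 2-fold at day 4, with a log2 ratio of 2.79, and at 0.95 was just short of it at day 6.

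Lower under the KO label, past 2-fold, were Wnt5a and Wnt7a at day 4 and Wnt5b at day 6. Wnt5b, which acts in the non-canonical branch, was 1.37 and 1.53 FPKM in ES cells labelled WT and KO, 1.30 and 1.16 at day 2, 6.33 and 3.54 at day 4, 6.05 and 2.26 at day 6, 2.44 and 2.10 in spinal column, and 2.45 in spinal cord. Wnt5a, the best known non-canonical ligand, was lower under the KO label at day 4 and higher at day 6, at 4.52 and 4.86 in ES cells, 2.82 and 3.93 at day 2, 4.76 and 2.19 at day 4, 2.91 and 5.88 at day 6, 3.97 and 3.10 in spinal column, and 6.04 in spinal cord. Wnt7a was 0.782 and 0.784 in ES cells, 0.0159 and 0.149 at day 2, 1.56 and 0.280 at day 4, 2.82 and 1.96 at day 6, 1.16 and 0.423 in spinal column, and 5.11 in spinal cord. At day 4, Wnt7a and its close relative Wnt7b were on opposite sides, with log2 ratios of -2.48 and 2.83. Wnt1, which marks the dorsal midline, was above 1 FPKM in the day 4 library labelled WT at 1.18, with 0.896 under the KO label, and was listed at 0 in the ES and day 2 libraries.

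Of the Bmp genes counted, 1 of 4 was past 2-fold between the labels at day 4 (all loci 16.5%) and 2 of 5 at day 6 (all loci 20.4%). Bmp4, the Bmp of mesoderm and dorsal ectoderm, at chr14:46999199-47010274, was 12.0 and 10.6 FPKM in ES cells labelled WT and KO, 3.03 and 2.06 at day 2, 1.04 and 2.32 at day 4, 3.73 and 6.91 at day 6, 9.81 and 11.1 in spinal column, and 3.14 in spinal cord. Bmp7, a roof plate ligand, was the highest Bmp gene from day 2 to day 6 under both labels, at 3.64 and 3.33 in ES cells, 4.71 and 4.17 at day 2, 12.6 and 19.7 at day 4, 17.6 and 11.2 at day 6, 7.63 and 6.79 in spinal column, and 12.6 in spinal cord. Neither label was the higher one for Bmp7 throughout, and no pair of its values was 2-fold apart.

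Bmp6 was a tissue gene, at 0.679 and 0.666 FPKM in ES cells labelled WT and KO, 0.352 and 0.465 at day 2, 0.987 and 1.28 at day 4, 0.904 and 2.05 at day 6, 9.68 and 6.64 in spinal column, and 12.4 in spinal cord. Bmp8b, known from germ cell formation and a near copy of Bmp8a, so that reads could be split between the pair, was past 2-fold at day 6 with 0.495 FPKM under the WT label and 2.63 under the KO label, and was at 2.20 and 2.99 in ES cells. Bmp2 stayed between 0.362 and 2.92 FPKM in the 11 libraries.

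The other secreted Fgf genes counted at these days were few. Fgf3, a hindbrain gene, was above 1 FPKM at day 4 alone, at 2.48 and 4.54 FPKM under the WT and KO labels, short of 2-fold. Fgf9 was 1.17 FPKM at day 6 under the WT label and 0.159 under the KO label, a log2 ratio of -2.88, and was highest in spinal cord, at 3.05. Motor neurons are a known source of Fgf9, and the 5 motor neuron markers were all past 2-fold lower in the same library. The part of fewer motor neurons in the Fgf9 values was not tested.

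Other markers moved with the label at days 4 and 6 together with the ligands. The 4 simple epithelium keratins (Krt8, Krt18, Krt7 and Krt19) were all past 2-fold higher under the KO label at both days and summed to 52.5 and 327 FPKM at day 4 and 145 and 1166 at day 6. The 8 fibroblast and mesenchyme genes were higher in 8 of 8 cases at day 4 and in 5 of 8 at day 6, with sums of 5.88 and 36.4 and of 53.6 and 138. The 6 pan-neuronal genes were all past 2-fold lower at day 6, at 810 FPKM under the WT label and 108 under the KO label. The 4 endothelial markers summed to 2.06 and 8.91 FPKM at day 4 and 7.35 and 21.8 at day 6. Of those above 1 FPKM, Pecam1 was past 2-fold higher at day 4 (6.81 against 1.13), and Pecam1 (19.4 against 6.25) and Cdh5 (1.44 against 0.159) at day 6. Pecam1 made up most of the sums and was 15.4 FPKM in ES cells labelled WT, while Kdr and Tek were at most 0.860 at these days. The 5 endoderm markers summed to 18.6 and 17.6 FPKM at day 4 and 11.9 and 17.8 at day 6. Epithelium and mesenchyme are known sources of Wnt ligands, and their part in the Wnt values was not tested.

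The receptors follow, beside 16.5% of all loci past 2-fold at day 4 and 20.4% at day 6. Of the Wnt receptors, 1 of 15 counted was higher and 1 lower at day 4, and at day 6, of 14, 2 were higher and 3 lower. At day 6 the largest were Fzd5 (6.62 FPKM under the KO label against 2.18) and Fzd10 (10.02 against 4.72) among the higher, and Fzd3 (1.61 against 7.23) and Fzd9 (1.66 against 5.90) among the lower. No BMP receptor or SMAD of 8 counted was past 2-fold at day 4 or day 6. Of the FGF receptors, none was higher at either day, 1 of 6 was lower at day 4 (Fgfr4, 1.09 FPKM against 9.59) and 2 of 4 at day 6, the larger difference above 1 FPKM in both libraries being Fgfrl1 (8.15 against 16.7).

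Among the inhibitors, the secreted Wnt antagonists Sfrp5 and Sfrp2 were lower under the KO label at day 4, at 11.3 FPKM against 46.4 and 56.3 against 160. In their list, beside 16.5% of all loci at day 4 and 20.4% at day 6, 1 gene of 9 counted was higher and 3 were lower at day 4. At day 6, 1 of 10 was higher, the Wnt-inactivating esterase Notum (4.58 against 2.27). Of the BMP inhibitors, 3 of 5 counted were higher at day 4, with Fst (2.89 against 1.21) above 1 FPKM in both libraries, and at day 6, of 8, 3 were higher, with Nbl1 (16.1 against 4.67), and 2 were lower.

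The feedback and target genes of the FGF pathway were mostly higher at day 4, when 9 of 11 were past 2-fold higher under the KO label (all loci 12.1%) and none was lower, with a median log2 ratio of 1.95 beside -0.03 over all loci counted. At day 6, 4 of 11 were higher (all loci 10.5%) and none was lower, with a median of 0.73. In ES cells and at day 2 none of the 11 was past 2-fold. The ERK-responsive factor Etv4 was 53.7 and 54.8 FPKM in ES cells labelled WT and KO, 32.1 and 32.9 at day 2, 0.605 and 8.33 at day 4, and 12.9 and 43.4 at day 6. Its values, like those of Fgf4, were close between the labels in ES cells and at day 2, lowest in culture at day 4 and higher under the KO label from then on. The feedback inhibitor Spry4 was 0.108 and 2.02 FPKM at day 4 and 3.35 and 11.5 at day 6, the receptor antagonist Il17rd was 1.64 and 16.3 at day 4, and Etv5, related to Etv4, was 2.87 and 17.3 at day 4. The 5 pluripotent cell markers moved beside these genes, with sums of 30.1 and 180 FPKM at day 4 and 342 and 886 at day 6, and the part of such cells in these values was not tested.

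Targets of the other pathways gave mixed counts. Of the Wnt feedback and target genes, 2 of 10 were lower under the KO label in ES cells (all loci 0.59%), T and Sp5, the latter at 4.97 FPKM against 10.5. At day 2, 3 of 9 were lower (all loci 1.4%), T, Sp5 and Axin2, the last at 1.32 against 3.16. At day 4, 3 of 11 were higher (all loci 12.1%) and none lower (all loci 4.46%), and at day 6, of 10, 3 were higher (all loci 10.5%) and 1 lower (all loci 9.93%). The leading one was the posterior homeobox gene Cdx1, at 1.54 and 18.8 FPKM at day 4 and 17.7 and 78.1 at day 6, and the lower one was the Wnt antagonist Nkd1, at 6.14 and 2.38. Axin2, the most general Wnt target, was 4.53 and 5.48 FPKM at day 4 and 5.05 and 5.03 at day 6. Of the BMP feedback and target genes, 4 of 10 were higher and 2 lower at day 4 (all loci 16.5% in either direction), with Smad7 at 5.23 FPKM against 1.33, Id1 at 23.3 against 69.0 and Id3 at 92.8 against 273. At day 6, 5 of 11 were higher and 1 lower (all loci 20.4%), with Hand1 at 14.5 against 1.82, Msx2 at 9.03 against 2.30 and Id4 at 3.79 against 9.44.

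The courses of the 2 labels were then followed in steps. From ES cells to day 2, none of the 18 ligand genes counted was past 2-fold higher under the WT label (all loci 5.27%) and 8 were lower (all loci 7.96%), together 44.4% beside 13.2% of all loci. Under the KO label 1 of 19, Fgf15, was higher (all loci 6.01%) and 9 were lower (all loci 8.38%), together 52.6% beside 14.4%. Lower under both labels were 8 genes: Bmp4, Bmp8b, Fgf2, Fgf7, Fgf10, Fgf17, Wnt3 and Wnt7b. They were 100% of those lower under the WT label and 88.9% of those lower under the KO label, where over all loci the shared genes were 77.5% and 73.7%. Fgf7 and Fgf10, which mesenchyme makes and epithelium receives, were 3.96 and 4.71 FPKM and 1.98 and 2.22 FPKM in ES cells labelled WT and KO, and 0.160 and 0.0461 and 0.222 and 0.0877 at day 2. Fgf2, a factor used to culture many stem cells, was 2.80 and 3.37 in ES cells and 0.183 and 0.217 at day 2. Of the 8 fibroblast and mesenchyme genes, 6 were past 2-fold lower at day 2 under each label (all loci 7.96% and 8.38%). Lum and Dcn were not, and under the WT label they were higher at day 2, at 4.04 against 3.19 FPKM and 4.59 against 3.61. The sums were 377 and 412 FPKM in ES cells and 67.9 and 71.3 at day 2, with Col1a1 at 158 and 170 and then at 11.6 and 15.7. According to the paper, both ES lines were kept on inactivated embryonic fibroblast feeder cells. The part of fibroblasts in the Fgf2, Fgf7 and Fgf10 values of the ES libraries was not tested.

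From day 2 to day 4, 7 of 17 ligand genes were higher (all loci 15.7%) and 5 lower (all loci 13.7%) under the WT label, and 14 of 20 were higher (all loci 15.4%) and 2 lower (all loci 7.74%) under the KO label. The shares past 2-fold were 70.6% and 80.0%, beside 29.4% and 23.1% of all loci. Among the genes past 2-fold under both labels, Fgf4 had log2 ratios of -8.04 under the WT label and -4.36 under the KO label, Fgf15 had 4.22 and 2.31, and Fgf3 had 3.09 and 2.83. The genes higher under the KO label and not under the WT label were 9: Bmp6, Fgf18, Wnt3, Wnt4, Wnt6, Wnt7b, Wnt8a, Wnt9a and Wnt11. The 5 ligand genes higher under both labels were 71.4% of those higher under the WT label and 35.7% of those under the KO label, where over all loci the shared genes were 61.4% and 62.1%. From day 4 to day 6, 9 of 18 were higher (all loci 17.0%) and 3 lower (all loci 9.97%) under the WT label, and 10 of 23 were higher (all loci 12.4%) and 2 lower (all loci 11.1%) under the KO label, in all 66.7% and 52.2%, beside 26.9% and 23.5% of all loci. The log2 ratios of this step were 4.69 and 3.13 for Fgf4 and -5.05 and -4.25 for Fgf15, WT label first. These step comparisons share the day 2 and day 4 libraries with each other.

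**Figure D4:**
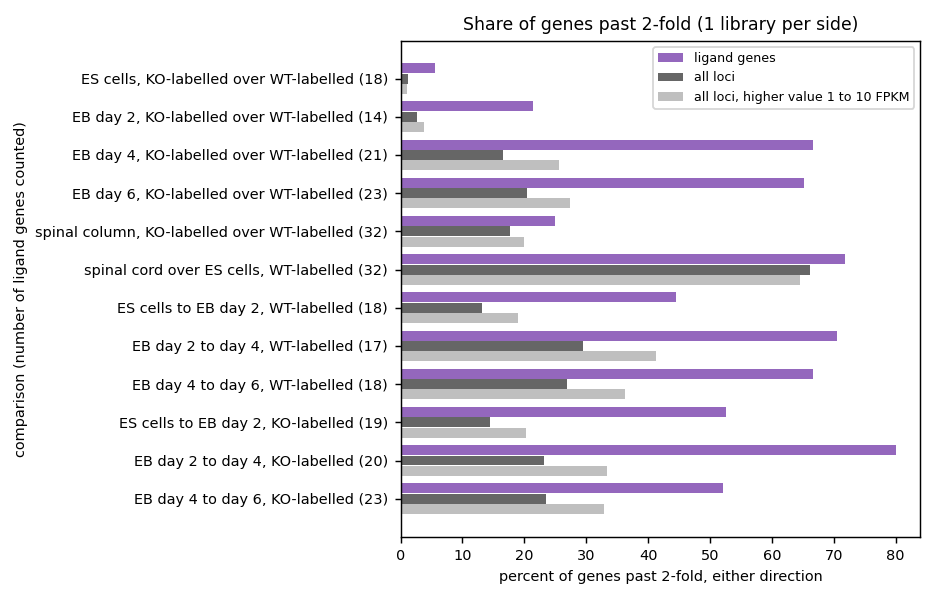
Percent of genes past 2-fold in either direction (x axis) in each of the 12 comparisons (rows, with the number of ligand genes counted), for the ligand genes, for all loci counted and for loci whose higher value is from 1 to 10 FPKM. The ligand bar is far longer than the other bars at days 4 and 6 between labels, and near them in spinal column and in spinal cord against ES cells.

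In each of the 3 tissue libraries, the most abundant of the 50 genes was the intracellular Fgf13, and the other 3 intracellular Fgf genes (Fgf11, Fgf12 and Fgf14) summed to 15.0, 11.8 and 34.0 FPKM in spinal column labelled WT, in that labelled KO and in spinal cord. Fgf13, at chrX:56315328-56387613, was 53.3 FPKM in spinal column labelled WT, 32.2 in that labelled KO and 50.4 in spinal cord. In culture it was 2.13 and 2.53 in ES cells labelled WT and KO, 2.62 and 2.53 at day 2, 3.70 and 3.89 at day 4, and 3.51 and 2.69 at day 6. The day 6 library labelled WT was at 3.51 FPKM of Fgf13 and spinal cord at 50.4, with 6 pan-neuronal genes summing to 810 and 1577. Single neuronal genes differed unevenly, day 6 first: Tubb3 was 561 and 749 FPKM, Stmn2 180 and 455, and Elavl3 20.6 and 82.7. Snap25 was 7.08 and 151, Map2 16.0 and 121, and Elavl4, higher at day 6, 25.6 and 17.2.

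Fgf12 was 0.0292 and 0.0670 FPKM in ES cells labelled WT and KO, 0.0241 and 0.0547 at day 2, 0.533 and 0.555 at day 4, 0.705 and 0.126 at day 6, 8.53 and 5.43 in spinal column, and 16.1 in spinal cord. Fgf14 was 0.101 and 0.0726 in ES cells, 0.231 and 0.219 at day 2, 0.603 and 0.498 at day 4, 0.439 and 0.0964 at day 6, 2.07 and 0.782 in spinal column, and 6.49 in spinal cord. Fgf11 was 1.36 and 1.21 in ES cells, 1.17 and 1.60 at day 2, 0.775 and 1.82 at day 4, 3.13 and 1.42 at day 6, 4.39 and 5.61 in spinal column, and 11.4 in spinal cord. All 4 were highest in spinal cord except Fgf13, which was highest in spinal column labelled WT. In spinal column, 1 of the 4, Fgf14, was past 2-fold lower under the KO label (all loci 8.54%), with a log2 ratio of -1.40. Fgf12 and Fgf13, at -0.65 and -0.73, were short of 2-fold. The 6 pan-neuronal genes summed to 713 and 454 FPKM, and 3 of them (Elavl3, Elavl4 and Map2) were past 2-fold lower. Their median log2 ratio, over all 6, was -0.85.

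Above 1 FPKM in tissue and never in culture were 13 genes: Bmp3, Bmp5, Bmp8a, Fgf1, Fgf6, Fgf12, Fgf14, Fgf16, Fgf22, Wnt2, Wnt2b, Wnt10b and Wnt16. That is 13 of 50, where 9.10% of all loci had this pattern. Fgf1, a ligand without a signal peptide, reached 7.43 FPKM in spinal column labelled WT, 5.04 in that labelled KO and 3.13 in spinal cord. In culture it was 0.170 and 0.0977 in ES cells labelled WT and KO, 0.136 and 0.00836 at day 2, 0.0319 and 0.0324 at day 4, and 0.379 and 0.320 at day 6. Bmp3 and Bmp5, known from bone and cartilage, were 2.57 and 3.04 and 2.07 and 2.01 in spinal column, and 1.04 and 1.26 in spinal cord. Above 1 FPKM in culture and never in tissue were 9 genes: Bmp8b, Fgf3, Fgf4, Fgf8, Fgf15, Fgf17, Wnt1, Wnt3a and Wnt8a. They were 18.0% of the 50 genes, beside 5.23% of all loci.

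Between spinal cord and ES cells labelled WT, 15 of 32 ligand genes were past 2-fold higher in cord (all loci 30.4%) and 8 lower (all loci 35.7%). Together they were 71.9% of those counted, near the 66.2% of all loci. Among genes above 0 in both libraries, the largest log2 ratios were those of Fgf12, Fgf14, Fgf9 and Bmp5, at 8.98, 5.89, 5.46 and 4.82, and of Fgf8 and Fgf7, at -5.52 and -4.73. Fgf4, Fgf17 and Wnt8a were listed at 0 in cord, with 81.0, 17.0 and 1.23 FPKM in ES cells. The ES values of this comparison come from the table that holds spinal cord, where Fgf4 in ES cells was at that value instead of 74.4, since the tables were scaled separately. In the same comparison 7 of 11 FGF feedback and target genes were lower in cord (Etv5, 17.0 FPKM against 104, and Spry2, 15.3 against 69.9, the most) and none higher. Of the FGF receptors, 2 of 4 were higher (Fgfr3, 36.6 against 1.31, and Fgfr2, 7.58 against 2.48).

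The other pathway lists had genes on both sides between cord and ES cells, where 66.2% of all loci were past 2-fold (30.4% higher and 35.7% lower), so that these counts are given as a description and are no result about the lists. Of 14 Wnt receptors, 4 were higher (Fzd1, 11.3 FPKM against 1.89, and Fzd3, 8.19 against 1.67) and 6 lower (Fzd7, 4.37 against 29.0, and Lrp5, 3.82 against 22.6). Of 11 Wnt targets, 3 were higher (Nkd1, 7.43 against 1.10, and Nkd2, 5.37 against 2.56) and 6 lower (Ccnd1, 8.87 against 119, and Sp5, 1.08 against 11.4), and of 13 Wnt inhibitors and modulators 3 were higher and 2 lower. Of 10 BMP receptors and SMADs, 3 were higher (Acvr2a, 11.7 against 3.92) and 2 lower (Smad4, 9.70 against 32.5, and Acvr2b, 4.83 against 13.0). Of 10 BMP inhibitors, 4 were higher (Nog, 6.14 against 1.04, and Bmper, 4.08 against 1.22) and 2 lower (Fst, 2.38 against 20.9, and Grem1, 3.43 against 20.3). Of 10 BMP targets, 2 were higher (Id4, 71.3 against 3.81, and Id2, 46.5 against 17.4) and 4 lower (Smad7, 2.65 against 26.7).

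In spinal column, 8 of 32 ligand genes were past 2-fold between the labels (25.0%, all loci 17.6%), 5 higher (all loci 9.05%) and 3 lower (all loci 8.54%) in the library labelled KO, and 1 of 23 with both values above 1 FPKM (all loci 13.0%). A share this close to that of all loci, of which 19.9% were past 2-fold in the range from 1 to 10 FPKM, is no result about the ligands. The largest was Fgf22, of the subfamily of Fgf7 and Fgf10, at 0.523 FPKM under the WT label and 4.82 under the KO label, and 1.17 in spinal cord. Wnt2 and Wnt10b were 0.296 and 1.65 FPKM and 0.300 and 1.44. The epidermal genes Krt1, Krt10, Krt5, Krt14 and Lor, a list chosen after their values were seen, summed to 11.0 FPKM under the WT label and 834 under the KO label, all 5 past 2-fold higher. Fgf22 and Wnt10b are known from skin, and the part of epidermis in their values was not tested. Fgf6, a muscle ligand, was 1.004 and 2.32 FPKM, Fgf16 was 0.940 and 1.90, Wnt2b was 1.86 and 0.739, Wnt16 was 0.887 and 1.02, and Bmp8a was 2.18 and 1.12. Of the 6 skeletal muscle genes, Tnnt3 was 2927 and 4489 FPKM, Myh3 420 and 218, Myog 92.8 and 116, and Myod1 25.1 and 27.6 in the spinal column libraries labelled WT and KO. Ckm was 3407 under the WT label and listed at 0 under the KO label, and Acta1 was listed at 0 in both. Without these 2 genes, the other 4 summed to 3466 and 4850 FPKM, against 24.5 in spinal cord, and the part of muscle in the Fgf6 values was not tested. Those of cartilage and bone summed to 299 and 289 FPKM, against 13.1 in spinal cord. Glial genes summed to 125 and 98.5 FPKM in spinal column and 251 in cord, and the 2 red cell genes found to 2955, 5413 and 1908.

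Other pathway genes in spinal column are given beside the 17.6% of all loci past 2-fold, and with lists this short no result about them is read from the counts. Of the lists, FGF receptors had 1 of 5 lower under the KO label (Fgfr3, 6.61 FPKM against 13.5), FGF feedback and target genes 2 of 11 lower (Etv1, 3.80 against 8.83, and Spred2, 6.04 against 12.7), Wnt receptors 2 of 15 lower (Lrp6, 4.06 against 8.81, and Fzd3, 1.62 against 3.41) and BMP receptors and SMADs 2 of 10 lower (Bmpr2, 2.44 against 8.03, in the lead). None of the counted Wnt modulators, BMP inhibitors or BMP targets was past 2-fold, and of the Wnt targets 1 of 9 was, T at 1.72 against 0.213.

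TAF9B binding was then set beside these genes. The TAF9B list held 10415 peaks (median width 217 bp) and the RNA POL2 list 8620 (686 bp), each from 1 library. A peak was at a TSS when its centre lay within 500 bp, and distal when it lay from there to 50 kb from the nearest TSS of a protein-coding gene. A TAF9B peak at a TSS was found for 6 of 50 ligand genes, Bmp6, Bmp8a, Fgf12, Fgf22, Wnt5b and Wnt11 (12.0%, with 19.3% of all 22232 protein-coding genes). An RNA POL2 peak at a TSS was found for 0 of 50 (31.8% of all genes), and for 0 of the 16 ligand genes above 1 FPKM in the day 6 library labelled WT (56.0% of the 10521 genes so expressed), a library of an earlier day than that of the ChIP-seq. Of those 16, 1 had a TAF9B peak at a TSS (31.3% of expressed genes). The count of 0 holds for GENCODE start sites. With the RefSeq starts of the loci in the expression tables added, chosen after seeing the data, 2 of 50 had an RNA POL2 peak at a start (32.3% of all genes). They were Wnt5a, where the centre of the peak at chr14:29318315-29318891 lay 56 bp from that start and 667 bp from the GENCODE one, and Fgf7, whose locus entry also holds Galk2. The count for TAF9B was then 7 of 50, with Fgf7 added. The TAF9B shares depend on the distance: within 5 kb of a TSS, 16 of 50 ligand genes had a TAF9B peak (32.0%, with 25.5% of all genes) and 10 of the 16 expressed ones (39.1% of expressed genes), so that the ligand share was below that of all genes within 500 bp and above it within 5 kb. For RNA POL2 it was 4 of 50 (8.00%, with 35.7% of all genes).

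More than 500 bp from a start site the order was the opposite. A distal TAF9B peak was nearest to 20 of 50 ligand genes (40.0%, with 15.2% of all genes), and to 11 of the 16 expressed ones (19.4% of expressed genes). Ligand genes have more room around them, with a median of 67.7 kb nearest to their TSSs against 45.2 kb for all genes, and per megabase of such sequence they held 7.39 distal peaks against 3.56. In all, 32 TAF9B peaks were nearest to 24 ligand genes, 26 of them distal, 12 of these within 5 kb, and 3 of the 32 shared 1 bp or more with a POL2 peak. These 3 were at Fgf11, 1187 bp downstream of the TSS, at Fgf18, 1172 bp upstream, and at Wnt7a, 29601 bp upstream, where the POL2 score was 621.

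Of the 7 genes higher under the KO label at both days, 4 (Wnt6, Wnt7b, Wnt9a and Wnt11) were nearest to a distal TAF9B peak and 3 (Fgf4, Wnt3 and Wnt8a) to none. Such a peak was nearest to 40.0% of all 50 ligand genes and to 11 of the 16 expressed ones. With 7 genes, nothing about them is read from this count. Fgf15, Wnt3a, Wnt5a and Wnt7a also had such a peak, and Bmp4, Bmp7 and Wnt4 had none. The highest MACS scores were 264 at the Bmp8a TSS, 259 for the nearer peak of Fgf18, which lies 1172 bp upstream, and 220 for the peak of Wnt6 in an intron 1395 bp downstream, in a range from 50.25 to 264 with a median of 90.6 (all TAF9B peaks 83.3). Wnt10a, never above 1 FPKM, had 3 peaks, the most of any ligand gene. The peak nearest to the 500 bp limit was that of Fgf9, 502 bp upstream.

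**Figure D5:**
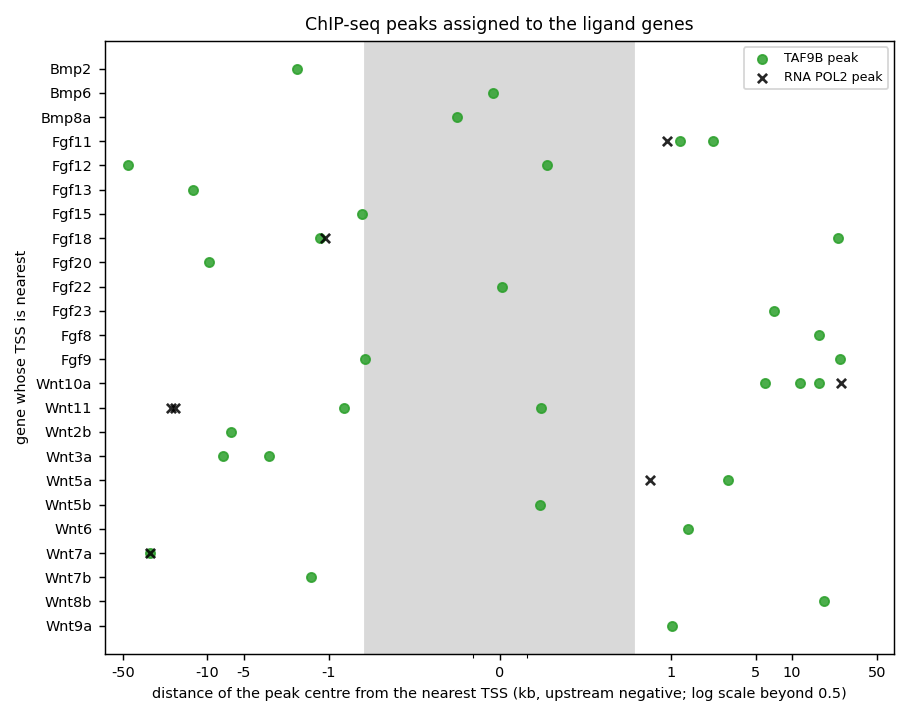
Distance of each TAF9B peak (filled circles) and RNA POL2 peak (crosses) from the nearest TSS, in kb, upstream negative, on an axis that is linear within 0.5 kb (shaded) and logarithmic beyond it, for the 24 ligand genes with a peak. Of the 32 TAF9B peaks 6 lie in the shaded band, and no RNA POL2 peak lies within 0.5 kb of a GENCODE TSS.

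The sequences were searched in the 200 bases about each peak centre, on both strands, for 5 short motifs and for the CTCF consensus, the last added after the sequences had been read. A CTCF match with at most 1 mismatch was in 8 of the 32 ligand peaks (25.0%), all of them distal (30.8% of 26), at Bmp2, Fgf12, Fgf15, Fgf20, Wnt3a, Wnt5a, Wnt9a and Wnt10a. The share was 19.4% of all TAF9B peaks, 29.0% of those over 500 bp from a TSS, 2.85% of RNA POL2 peaks and 2.33% of windows 2 kb beside each TAF9B peak. The share at the distal ligand peaks was thus near that of all distal TAF9B peaks, so the match is no feature of the ligands among TAF9B peaks. The capitals in the sequences printed above show where these matches lie.

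The shares of the other motifs were mixed. The E-box CAGCTG was in 25.0% of ligand peaks, 17.2% of all TAF9B peaks and 9.41% of the windows beside them. The nuclear receptor half-site AGGTCA was in 3.13%, 7.70% and 11.8%, the TCF/LEF core CTTTGAT in 3.13%, 1.81% and 3.42%, the GC-rich SMAD core GGCGCC in 6.25%, 11.2% and 1.05%, and the GLI core ACCACCCA in 0%, 0.913% and 1.12%. A match is a run of letters and not a measured site of any of these factors, and with 32 peaks each ligand peak is 3.13%.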

How the data were processed

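RNA was measured by poly-A RNA-seq in 11 libraries, 1 per condition. The authors aligned reads with TopHat and Bowtie to mm9 and deposited Cuffdiff FPKM values per locus in 6 tables of paired libraries, each normalized separately. The tables also hold log2 fold changes and p-values of the authors' own comparisons, which were not used. The peak lists, also deposited, give MACS peak positions with a score for 1 TAF9B and 1 RNA POL2 ChIP-seq library each. Read depth is not given with the FPKM values, so no counting error could be set beside them.

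The genes were matched by symbol through the RefSeq identifiers (52 symbols matched, 2 of them not reported here). FPKM ratios were taken without a pseudocount among genes above 1 FPKM in either library, and those past 2-fold in either direction were counted. With 1 library per group, no test was run. The step that counts genes was tested on simulated data. ES values came from the table that pairs both labels, except against spinal cord. Genes above 1 FPKM in a library were named, with values in every library for those reaching 5 FPKM or past 2-fold in at least 2 of the 5 comparisons between labels. From each pathway list, up to 2 genes on each side were named. The members and lists were chosen with earlier results of these data known.

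TSSs were taken from protein-coding transcripts of the GENCODE annotation of NCBIM37 (mm9), in place of RefSeq starts as first planned, and each peak was given to its nearest TSS. Motifs were searched in 200 bases about the peak centre. Alternatives were 1 FPKM added to both values, no filter, more than 1 FPKM in both libraries, centring on the median of all loci, other distances from the TSS, RefSeq locus starts added and peaks with scores above the median. Computation used Python 3.11.15, pandas 2.3.3 and numpy 2.4.6.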

Additional observations from a re-analysis of the deposited data

Results flagged for a closer look

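With 1 library per group, none of the differences in this paragraph was tested. They are pairs of comparisons in which the same gene was past 2-fold in opposite directions. Fgf11 had a log2 ratio of KO label over WT label of 1.23 at day 4 and -1.14 at day 6. Wnt5a had -1.12 at day 4 and 1.01 at day 6. Wnt8a had -1.59 at day 2, 4.05 at day 4 and 1.74 at day 6. From day 2 to day 4, Wnt8a had a log2 ratio of -4.47 under the WT label and 1.16 under the KO label. The Wnt8a values behind these ratios were between 0.0676 and 2.42 FPKM.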

How the results depend on the processing

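The counts depend on how low values are treated. With no filter on low values, the number of genes past 2-fold between the labels came to 9 for ES cells, 14 for day 2, 28 each for days 4 and 6 and 16 for spinal column, against 1, 3, 14, 15 and 8. It was 36 between spinal cord and ES cells against 23, and 21, 32 and 32 in the 3 steps under the WT label and 25, 36 and 26 under the KO label, against 8, 12, 12, 10, 16 and 12. No share over all loci was taken without the filter, so nothing about the ligands is read from these counts. With more than 1 FPKM required in both libraries it was 1 at day 2, 5 at day 4, 7 at day 6, 1 in spinal column and 5 in spinal cord against ES cells, and 3, 4 and 4 and 4, 7 and 7 in the steps. The shares of all loci were 1.08% at day 2, 11.0% at day 4 and 14.8% at day 6. In spinal column the share was 13.0%, and in cord against ES cells 56.0%. For the steps it was 8.52%, 20.3% and 19.4% under the WT label and 9.55%, 16.2% and 17.0% under the KO label. With 1 FPKM added to both values it was 1 of 14 at day 2 (all loci 1.24%), 8 of 21 at day 4 (all loci 10.5%) and 6 of 23 at day 6 (all loci 13.3%). It was 2 of 32 in spinal column (all loci 1431 of 14255), and 10 in the step from day 2 to day 4 under the KO label (all loci 14.8%). With the higher value kept from 1 to 10 FPKM, an alternative chosen after seeing the data, it was 15 in spinal cord against ES cells (all loci 64.5%). Centring on the median of all loci left all 12 counts within 1.5 times. Within 5 kb of a TSS, 16 genes had a TAF9B peak (32.0%, all genes 25.5%) and 4 an RNA POL2 peak (8.00%, all genes 35.7%), against 6 (12.0%, all genes 19.3%) and 0. Among peaks with scores above the median, 3 had a TAF9B peak at a TSS (6.0%, all genes 12.5%). With the RefSeq starts of the loci in the tables added, an alternative chosen after seeing the data, 2 genes had an RNA POL2 peak at a start against 0 (all genes 32.3%). Of the 130 ratios of single genes past 2-fold with both values above 0, 45 were no longer past 2-fold with 1 FPKM added and 2 after centring, and 0 reversed. Of the same 130, 81 leave the count when both values must be above 1 FPKM, with the ratio itself unchanged.

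The labels give no replicate numbers, so no fit holds a replicate block. The WT-labelled and KO-labelled culture libraries share their stages, and a fit of label and stage over them was not run. With 1 library per condition, no library was left out. Differences between single libraries carry no estimate of the spread between cultures or animals, and the depth behind each FPKM is unknown.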
